A study of Canis lupus familiaris with 34 samples.

Results

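The genes described here are 10 genes of the hypoxia and stress response: HIF1A, DDIT4, TXNIP, VEGFA, ADM, SLC2A1, PGK1, CA9, BNIP3 and NDRG1. Each was read through the gene-level probe set (Transcript cluster) that carries its symbol in the platform annotation. Where a gene had several such probe sets, the one with the highest mean was used. The 10 probe sets are part of 16878 with a single gene symbol, among 32391 on the array. The genes were chosen by their known roles and, for DDIT4, by its measured values: its mean level in metastasising relative to non-metastasising tumours was among the highest in these same samples. The other 9 are widely known hypoxia or stress genes. Differences of all 10 between the metastasis groups are therefore given as a description, without a p-value.

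The data came from Affymetrix canine gene arrays of 34 primary mast cell tumours (MCTs) of canine skin, 1 tumour per dog. Of these, 18 were metastasising (M), borne by dogs that died of MCT metastasis, and 16 were non-metastasising (NM), borne by dogs that lived beyond 1000 days after surgery. There were 12 breed labels, Cross-breed included, and the Labrador Retriever was the most frequent with 10 tumours, 7 M and 3 NM. No normal skin, treated arm or time course was compared. Dogs entered the M group regardless of adjuvant therapy, the glucocorticoid prednisolone included, while NM dogs received none. The study describes the NM blocks as older on average. It also reports that the M dogs were older at diagnosis and that males made up a larger share of the NM dogs. The RNA was taken from archived biopsies, fixed in formalin and embedded in paraffin (FFPE), which also hold epidermis, stroma and leukocytes besides mast cells. In such bulk samples, fewer cells of a type and less RNA per cell cannot be told apart.

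Mast cell markers were above the table median to different extents. The chymase gene CMA1, the transcription factor GATA2, the vesicular amine transporter SLC18A2 and the granule proteoglycan SRGN were above this median (1.84 on the log2 scale, over the whole table) in all 34 tumours, and the stem cell factor receptor KIT was above it in 33. Carboxypeptidase CPA3 and the IgE receptor chain MS4A2 were above it in 31. Other markers were above it in fewer tumours: ENPP3 in 25, the histidine decarboxylase HDC and the IgE receptor chain FCER1A in 21 each, the interleukin 33 receptor IL1RL1 in 12 and the prostaglandin synthase HPGDS in 7. Array medians ran from 1.79 to 1.91. The share of Transcript clusters above a level of 4, a simple measure of how much strong signal an array held, ran from 5.10% to 8.64% with a median of 7.44%.

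When oxygen is scarce, prolyl hydroxylases stop marking the hypoxia-inducible factor HIF-1 alpha for destruction by the von Hippel-Lindau protein. The stabilised factor then raises transcription of genes for blood vessel growth, glucose uptake, glycolysis, pH control and mitochondrial turnover. HIF1A itself is controlled largely at the level of the protein, so its mRNA is not a direct reading of the pathway. Several of the targets also answer to other signals, such as glucocorticoids, glucose, DNA damage and growth factors. In solid tumours these transcripts are commonly read as a hypoxia signature.

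All 10 genes passed the level filter, which required a value above the table median in 30% or more of the tumours of either group. They did so by very different margins. DDIT4, ADM, SLC2A1, BNIP3 and NDRG1 were above the table median in every tumour, and TXNIP in all but 1 M tumour. VEGFA was above it in 12 M and 15 NM tumours. PGK1 (7 M, 5 NM), HIF1A (5 M, 5 NM) and CA9 (4 M, 5 NM) lay below it in most tumours, so that their differences rest partly on low signal. The second SLC2A1 probe set was above it in only 1 M and 2 NM tumours and was not tested. Its levels had r = -0.23 with those of the set used.

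DDIT4 encodes REDD1, which restrains the growth kinase complex mTORC1 under hypoxia, energy shortage, DNA damage and glucocorticoid exposure. Its lowest, median and highest log2 levels were 5.02, 7.34 and 9.46 in the M MCTs and 4.65, 6.05 and 8.58 in the NM MCTs. The mean was 0.67 higher in the M MCTs (SE 0.46, n = 18 and 16), and this difference ranked 6 of 10691 tested clusters with a single symbol. The groups overlapped along nearly the whole range. Of the M MCTs, 3 lay above the highest NM tumour, and 2 NM MCTs lay below the lowest M tumour. The highest M values were 9.46 in a Cross-breed and 9.30 and 9.15 in Labrador Retrievers, and the highest NM value was also from a Labrador Retriever. DDIT4 spread widely within each group (SD 1.50 in M and 1.28 in NM), and its SD over all tumours exceeded that of 96.9% of tested clusters. No NM tumour had a level between 6.12 and 7.16, and 2 M tumours did, at 6.68 and 6.78. Because 10 M but 7 NM tumours were above 7, the medians differed by 1.29. The M dogs were the older group, so age and metastasis group are partly confounded. With dog age as a covariate the difference was 0.27 (SE 0.51).

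TXNIP, which binds thioredoxin and limits glucose uptake, rises with intracellular glucose through the MondoA and ChREBP factors. It was the most variable of the 10 genes, with an SD of 1.73 in M and 1.49 in NM tumours. Its lowest, median and highest levels were 1.74, 4.50 and 7.78 in the M group and 2.07, 4.71 and 6.72 in the NM group. The difference of means was -0.13 (SE 0.54), far inside that spread. The sign was not stable, since the difference became 0.60 with a keratinocyte score as a covariate and 0.06 with age.

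HIF1A, the oxygen-regulated subunit itself, had levels of 1.27, 1.53 and 3.64 (lowest, median, highest) in the M MCTs and 1.46, 1.57 and 2.49 in the NM MCTs. Most tumours of both groups sat near 1.5, and only 5 of each group rose above the table median. The highest values came from an M Cross-breed (3.64) and an M German Shepherd Dog (3.10). The means differed by 0.03 (SE 0.18).

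Of the vascular factors, VEGFA is the main growth factor for endothelium and ADM is the vasodilator peptide adrenomedullin. VEGFA ran from 1.71 through a median of 2.12 to 2.87 in the M MCTs and from 1.73 through 2.17 to 2.65 in the NM MCTs, a mean difference of -0.02 (SE 0.11). The 2 highest tumours were M, but so were the lowest 2, and the M group was the more spread (SD 0.38 against 0.22). ADM ran from 2.88 through 3.23 to 4.43 in the M MCTs and from 2.69 through 3.49 to 3.98 in the NM MCTs, with a mean difference of -0.07 (SE 0.14). The groups overlapped over most of the range, with 1 M tumour above every NM tumour and 2 NM tumours, at 2.69 and 2.87, below every M tumour.

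**Figure D1:**
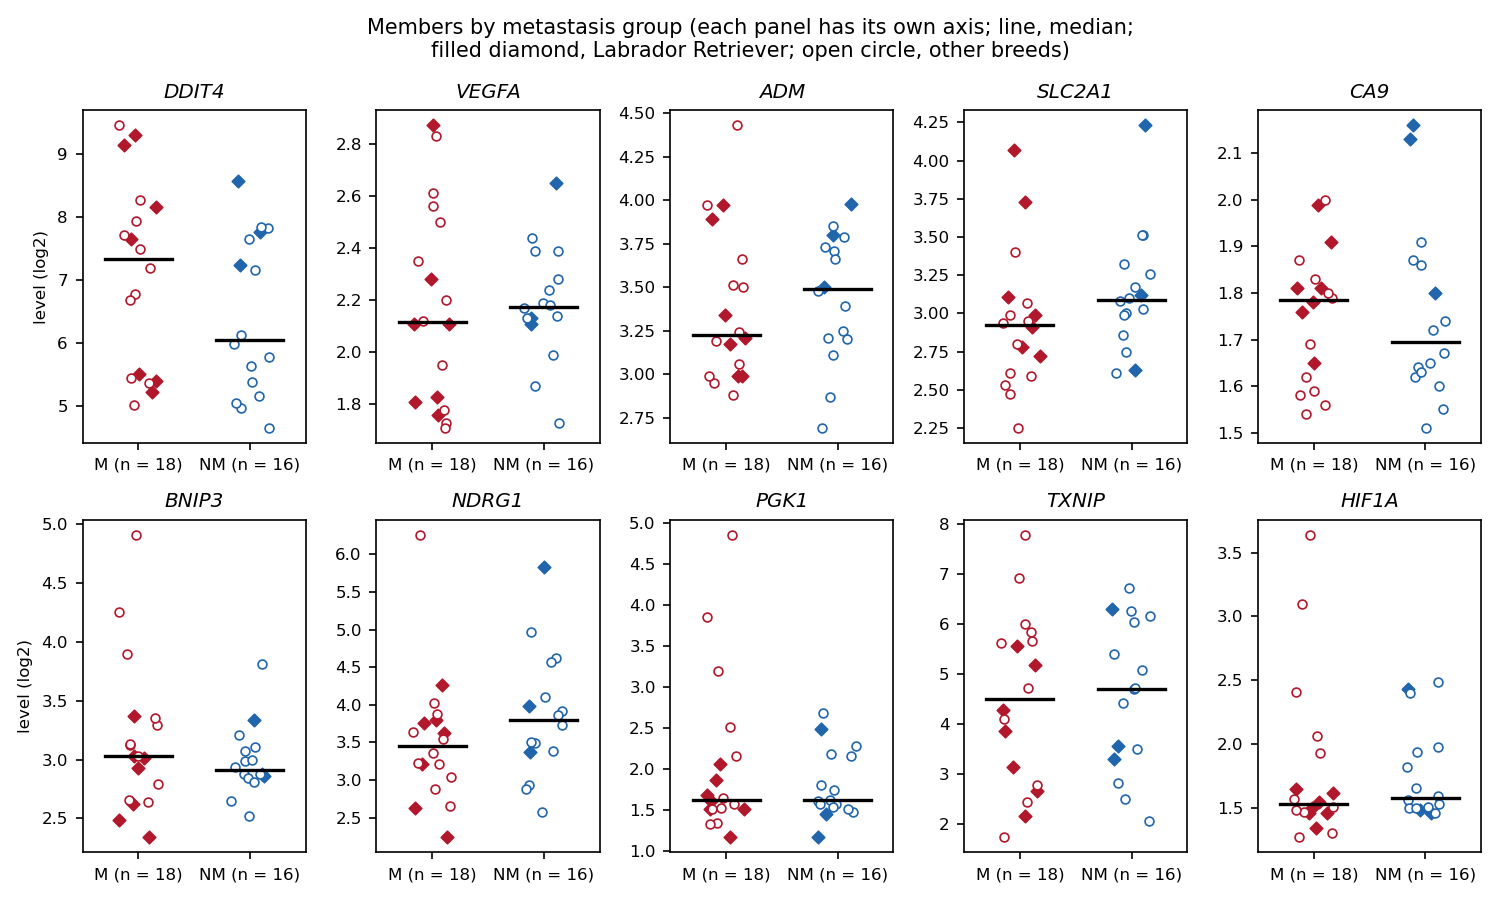
Log2 level of each of the 10 genes (vertical axes, a separate scale per panel) in 18 M and 16 NM MCTs. Each point is 1 tumour, filled diamonds are Labrador Retrievers, open circles other breeds, and lines are group medians. DDIT4 shows the widest gap of medians (7.34 against 6.05) with overlapping points, and the high PGK1 values of 3.20 to 4.86 belong to 3 M tumours.

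Among the genes of glucose use and pH, SLC2A1 encodes the glucose transporter GLUT1, PGK1 the ATP-forming glycolytic enzyme phosphoglycerate kinase, and CA9 a cell surface carbonic anhydrase. SLC2A1 ran from 2.25 through a median of 2.92 to 4.07 in the M MCTs and from 2.61 through 3.09 to 4.23 in the NM MCTs. Its mean was 0.20 lower in the M group (SE 0.14), with 4 M MCTs below the lowest NM tumour. With the keratinocyte score as a covariate the SLC2A1 difference was 0.01. PGK1 medians were almost the same, 1.63 (M) and 1.62 (NM), yet the highest values were 4.86 and 2.69. Only 3 M tumours lay above every NM tumour, a Curly Coated Retriever (4.86), a Golden Retriever (3.86) and a Cross-breed (3.20), and they carried the mean difference of 0.25 (SE 0.26). CA9 moved least, between 1.54 and 2.0 in the M MCTs (median 1.79) and between 1.51 and 2.16 in the NM MCTs (median 1.69). Its spread was wider than that of only 2.62% of tested clusters, and most of its values lay below the table median.

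BNIP3 tags mitochondria for removal by autophagy, and NDRG1 is a differentiation-linked stress gene that in human tumours has been studied as a suppressor of metastasis. BNIP3 ran from 2.34 through a median of 3.03 to 4.91 in the M MCTs and from 2.52 through 2.91 to 3.81 in the NM MCTs, with a mean difference of 0.17 (SE 0.17). The M group held both ends of the range, with 3 tumours above and 2 below all NM tumours. NDRG1 ran from 2.24 through 3.46 to 6.26 in the M MCTs and from 2.58 through 3.80 to 5.83 in the NM MCTs, with a mean difference of -0.34 (SE 0.28). The highest tumour of each group, an M Golden Retriever (6.26) and an NM Labrador Retriever (5.83), stood apart, since no other tumour exceeded 4.97. With the keratinocyte score as a covariate the NDRG1 difference was -0.08.

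Across the 10 genes, 4 had a higher mean in the M MCTs (DDIT4, PGK1, BNIP3 and HIF1A), and the median difference was -0.01. Over all 19246 clusters tested, 43.9% had a higher mean in the M MCTs and the median difference was -0.02. None of the 10 was called by limma with Benjamini-Hochberg adjustment at 0.05, where 0.0% of all clusters were called and the smallest adjusted p was 0.558. At an unadjusted p under 0.05, 797 clusters passed (4.14%), with 1.34% of all clusters higher and 2.8% lower in the M MCTs. None of the 10 genes was among them. After Benjamini-Hochberg adjustment over the same clusters, an unpaired t-test also called 0. The study instead adjusted its t-test by permutation, over a smaller set of detected clusters. It reported genes that differed between the groups under that procedure. Because this contrast helped to choose the genes, nothing further is read from these counts. The keratinocyte score, the mean z-score of 21 keratinocyte genes, was -0.36 ± 0.64 (SD) in 18 M tumours against 0.40 ± 1.03 (SD) in 16 NM tumours. The means of all 21 genes, and of all 5 neutrophil genes tested, were lower in the M MCTs. Many of the 21, such as KRT1, KRT10 and KRTDAP, were reported by the study as lower in these same M tumours. Their direction was thus partly known in advance, and as a covariate the score is not independent of group. The part of keratinocyte and neutrophil genes in the differences of SLC2A1, NDRG1 and TXNIP was not tested beyond the covariate values above.

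Breed was not used in choosing the genes and was compared as Labrador Retriever (n = 10) against other breeds (n = 24), with metastasis group as a covariate. CA9 was higher in Labrador Retrievers by 0.19 (SE 0.06, unadjusted p = 0.00458), with levels of 1.65, 1.81 and 2.16 (lowest, median, highest) against 1.51, 1.66 and 2.0. The ranges overlapped widely, and both lay at low signal. SLC2A1 was higher by 0.35 (SE 0.15, unadjusted p = 0.0284), with levels of 2.63, 3.05 and 4.23 against 2.25, 2.99 and 3.51. This difference came from the upper end, since the 3 highest SLC2A1 tumours were all Labrador Retrievers while the medians were close. Neither passed adjustment in limma (adjusted p = 0.93 for both), which called 0 of 19246 clusters (0.0%). At an unadjusted p under 0.05 the share was 2 of the 10 genes, both higher, against 4.1% of all clusters (2.42% higher and 1.69% lower in Labrador Retrievers). For CA9 that limit was also passed without the group covariate and with dog age or the keratinocyte score as covariates. For SLC2A1 it was not passed without the group covariate or with the keratinocyte score. In the fit with dog age, 2 of the 10 genes were under that limit, as were 1203 of 19246 clusters. Adjusting for the keratinocyte score brought BNIP3 (-0.39), PGK1 (-0.58) and TXNIP (-1.10) under it, all lower in Labrador Retrievers (adjusted p = 0.567 for each), in a fit where 8.78% of all clusters were.

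DDIT4 was higher in Labrador Retrievers by 0.75 (SE 0.51, unadjusted p = 0.154, adjusted p = 0.93 in limma), which did not pass. With array weights the difference was 1.01 (unadjusted p = 0.0499, adjusted p = 0.879). Their DDIT4 levels were 5.22, 7.71 and 9.30 against 4.65, 6.40 and 9.46 in other breeds. Within other breeds the DDIT4 median was 7.19 in 11 M and 5.78 in 13 NM MCTs, whereas within Labrador Retrievers it was 7.66 in 7 M and 7.76 in 3 NM MCTs. The interaction term for this contrast of contrasts was -1.60 (SE 1.04, unadjusted p = 0.134). Over all clusters the interaction was called for 0.0%, with a smallest adjusted p of 0.971, and 1.47% had an unadjusted p under 0.05. None of the 10 genes was among either. Only 3 NM Labrador Retrievers stood behind this term.

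The levels of the 10 genes were then set against each other over the 34 tumours, a measure that played no part in choosing them. Of 45 pairs, 14 were correlated at an adjusted p under 0.05 (permutation test, 100000 resamples, Benjamini-Hochberg over the 45), 13 positively and 1 negatively. That is 31.1% of pairs, and the weakest of them had an absolute r of 0.411. Among all pairs of tested clusters 13.6% reached that value, so that correlation of this size was common on these arrays. The median r was 0.18 over the 45 pairs and 0.02 over all cluster pairs. By Spearman's rho 11 pairs passed, 10 of them shared. All 14 had the same sign within the M and within the NM MCTs, and with the group means removed the same 14 passed.

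PGK1, TXNIP, BNIP3, HIF1A, NDRG1 and VEGFA accounted for 11 of the 14. This grouping was made after the values were seen, and r among its 15 pairs ran from 0.29 to 0.70. The strongest pair was PGK1 with TXNIP (r = 0.70, permutation p = 1e-05, the smallest the resampling can give, adjusted p = 0.00045, and rho = 0.81 with an adjusted p of 0.000225). Within groups r was 0.74 (M) and 0.77 (NM), and it was 0.74 without the 2 tumours farthest from the median of PGK1. BNIP3 with PGK1 followed (r = 0.68, permutation p = 0.00051, adjusted p = 0.00574, rho = 0.48 with p = 0.00418), with r of 0.57 without the 2 tumours farthest from the BNIP3 median and 0.45 without those farthest from the PGK1 median. The M Curly Coated Retriever was highest for PGK1, BNIP3 and TXNIP at once, at 4.86, 4.91 and 7.78. The M Cross-breed with the highest HIF1A also ranked high for TXNIP (6.92) and PGK1 (3.20). Without the 3 tumours highest for PGK1 there were again 14 pairs, 11 of them shared.

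TXNIP with HIF1A had r = 0.61 (permutation p = 2e-05, adjusted p = 0.00045, rho = 0.66 with p = 7e-05). BNIP3 with TXNIP had r = 0.57 (permutation p = 0.00015, adjusted p = 0.00225, rho = 0.52 with p = 0.00194). CA9 with PGK1 was the only negative pair (r = -0.43, permutation p = 0.0128, adjusted p = 0.0443, rho = -0.44 with p = 0.0105), and it was -0.39 without 2 tumours. NDRG1 with PGK1 (0.35), VEGFA with PGK1 (0.37) and VEGFA with HIF1A (0.29) also fell below an absolute r of 0.411 without the 2 tumours farthest from the median of the first gene. Leaving out those farthest from the median of the second gene gave 0.22 for VEGFA with SLC2A1 (0.46 with all tumours), 0.35 for VEGFA with TXNIP, 0.23 for VEGFA with HIF1A and -0.35 for CA9 with PGK1. With both SLC2A1 probe sets averaged, VEGFA with SLC2A1 had r = 0.11 (adjusted p = 0.73 in the permutation test).

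DDIT4 stood outside this group. Its only called pair was with ADM (r = 0.48, permutation p = 0.0046, adjusted p = 0.0259, rho = 0.49 with p = 0.00387), and its r with the other 8 genes ran from -0.16 with TXNIP to 0.28 with CA9. The DDIT4 and ADM correlation was 0.41 within the M MCTs, 0.67 within the NM MCTs and 0.45 without 2 tumours. Labrador Retrievers held several of the tumours high in both genes, at DDIT4 levels of 9.30, 9.15 and 8.58 and ADM levels of 3.97, 3.89 and 3.98. The tumour with the highest ADM, an M German Shepherd Dog at 4.43, had a middling DDIT4 of 6.68.

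**Figure D2:**
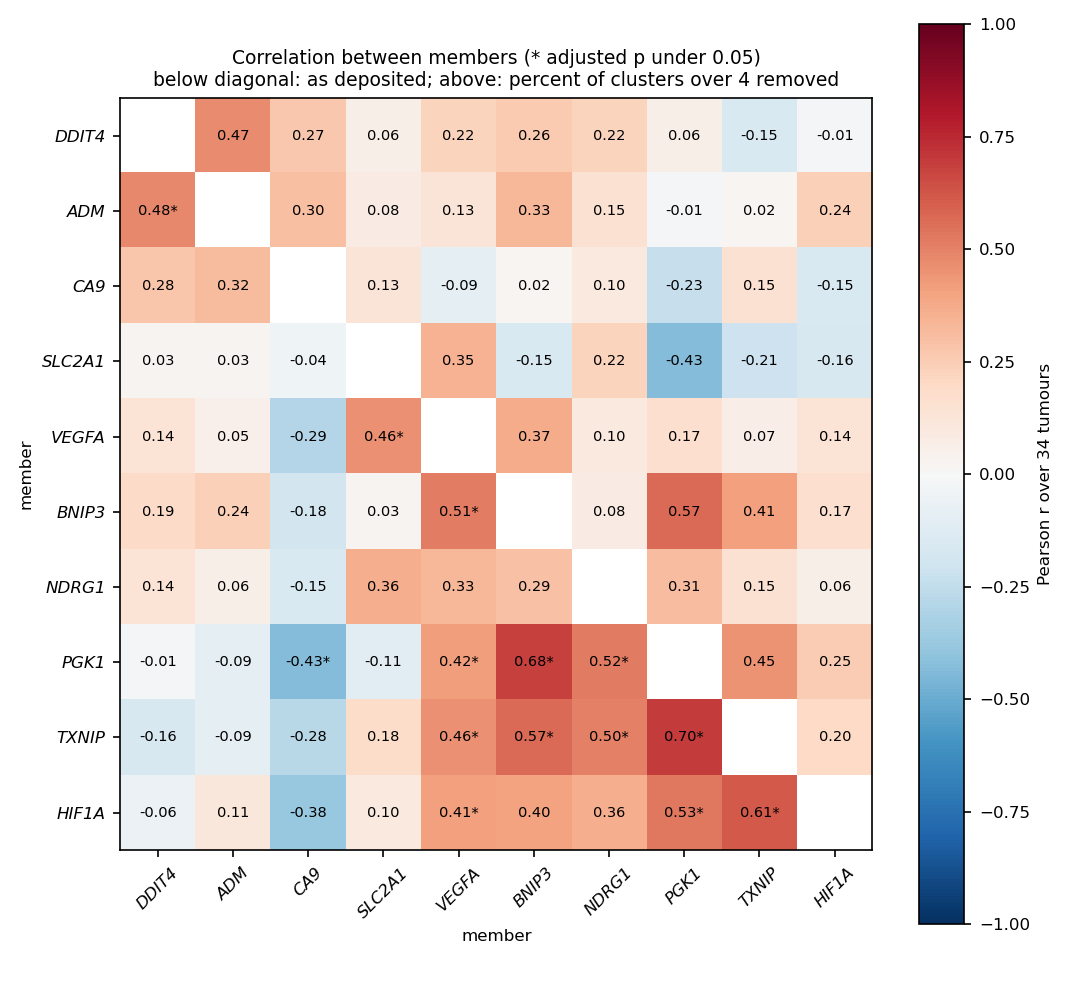
Pearson r between the 10 genes over 34 tumours, with values as deposited below the diagonal and values after removal of the percent of clusters above level 4 above it. Asterisks mark an adjusted p under 0.05, of which there are 14 below the diagonal and 0 above it. PGK1 with TXNIP goes from 0.70 to 0.45 across the diagonal, and DDIT4 with ADM from 0.48 to 0.47.

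The co-varying genes also followed the amount of strong signal on an array. Against the percent of Transcript clusters above level 4, TXNIP had r = 0.83 (permutation p = 1e-05, adjusted p = 0.0002 over 20 comparisons of a gene with an array measure, rho = 0.83). It was 0.79 (M) and 0.89 (NM) within groups and 0.82 without 2 tumours, and only 1.41% of all clusters had an r as far from 0. HIF1A (r = 0.63), PGK1 (0.60), NDRG1 (0.52), VEGFA (0.51), BNIP3 (0.45) and CA9 (-0.44) passed too, with adjusted p from 0.0006 to 0.0197 in the permutation test. Of all clusters, 33.5% lay at least as far from 0 as CA9. DDIT4 (r = -0.09, permutation p = 0.601, adjusted p = 0.718) and ADM (r = -0.12, permutation p = 0.482, adjusted p = 0.689) did not pass. The measure itself was 7.14% ± 1.03 (SD) over the 18 M tumours and 7.37% ± 0.84 (SD) over the 16 NM tumours.

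With this measure removed by regression, an alternative chosen after seeing the data, 0 of the 45 pairs passed the adjusted limit, and all 14 kept their sign. PGK1 with TXNIP fell from 0.70 to 0.45 (adjusted p = 0.106), TXNIP with HIF1A from 0.61 to 0.20 and BNIP3 with PGK1 from 0.68 to 0.57 (adjusted p = 0.0806). DDIT4 with ADM stayed at 0.47 (unadjusted permutation p = 0.00534, adjusted p = 0.106). Whether the share of strong signal reflects RNA quality, cell content or the tumours' own expression was not tested. The mean correlation of an array with all others, 0.788 to 0.895, was correlated with SLC2A1 (r = 0.48), NDRG1 (0.48) and TXNIP (0.45), with adjusted p from 0.0127 to 0.0166 in the permutation test, where 7.43% of clusters lay as far from 0.

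**Figure D3:**
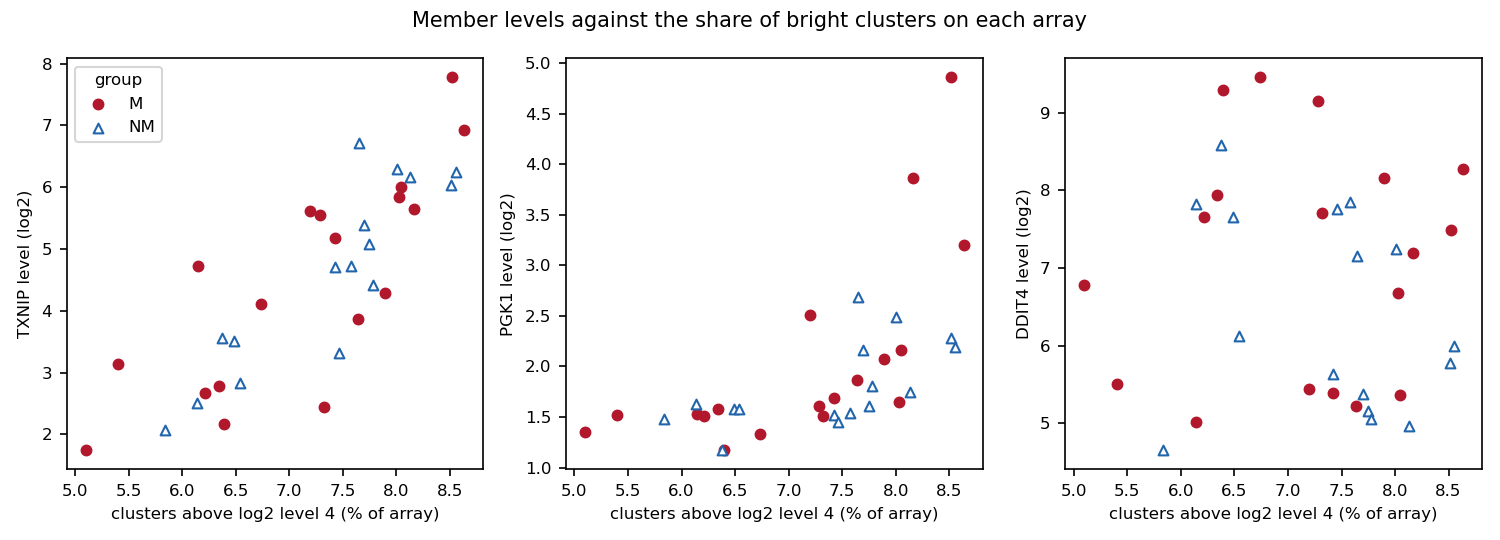
Log2 levels of TXNIP, PGK1 and DDIT4 (vertical axes) against the percent of Transcript clusters above level 4 on the same array (horizontal axes), 1 point per tumour, filled circles M and open triangles NM. TXNIP rises along the axis (r = 0.83), PGK1 rises too (r = 0.60), and DDIT4 shows no trend (r = -0.09).

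The same contrast between the genes appeared against gene lists. For 16 lists of processes and cell types, the z-scores of the tested genes were averaged into a score per tumour, always without the gene it was set against. Of 160 combinations, 61 (38.1%) were correlated at an adjusted p under 0.05 in the permutation test, and 67 by Spearman's rho. The background was high here as well, since 20.7% of all cluster and list combinations reached the weakest called r of 0.409. TXNIP was called with 13 lists, HIF1A with 11, NDRG1 with 9, VEGFA and PGK1 with 8 each and BNIP3 with 7, against 3 for SLC2A1, 2 for CA9 and 0 for DDIT4 and ADM. DDIT4 had its highest r with endothelial genes (0.30, permutation p = 0.0812, adjusted p = 0.159) and T and NK cell genes (0.28, permutation p = 0.115, adjusted p = 0.214). Against the other hypoxia targets as a list, DDIT4 had r = 0.02 (permutation p = 0.917, adjusted p = 0.965).

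The lists of the pathway differed in their own background. The share of all clusters past an absolute r of 0.409 was 37.7% for the HIF regulators, 33.5% for glycolysis, 29.7% for the glucocorticoid response and 27.2% for the other hypoxia targets, against 12.4% for the keratinocyte, 11.2% for the mast cell, 9.88% for the macrophage and 2.84% for the neutrophil list. These scores also held the other described genes, 4 of them in the other hypoxia targets and 2 in glycolysis, so they partly repeat the pairs. With all 10 left out of every score, an alternative chosen after seeing the data, 62 combinations were called, 60 of them shared. Against the glycolysis list, NDRG1 had r = 0.73 (permutation p = 2e-05, adjusted p = 0.000213, rho = 0.73), and it kept 0.63 with the strong signal share removed (adjusted p = 0.0072). VEGFA against the same list had r = 0.65 (permutation p = 4e-05, adjusted p = 0.000337, rho = 0.61), which became 0.47 (adjusted p = 0.0495). HIF1A against the other hypoxia targets had r = 0.76 (permutation p = 1e-05, adjusted p = 0.000178), but rho was only 0.48 (p = 0.00498), and r became 0.58 (adjusted p = 0.0192). PGK1 and BNIP3 were both called against the glucocorticoid response list, at r = 0.75 (permutation p = 1e-05, adjusted p = 0.000178, rho = 0.67) and 0.68 (permutation p = 3e-05, adjusted p = 0.000282, rho = 0.59). Without the 2 tumours of most extreme score, r was 0.55 for PGK1 and 0.52 for BNIP3. With the share removed over all tumours, r was 0.56 (adjusted p = 0.0196) and 0.58 (adjusted p = 0.0125). In all, 14 combinations passed after the removal, 13 of them shared with the 61. With the 10 genes left out of the scores as well, 9 passed, all among the 61. NDRG1 with glycolysis (0.63), HIF1A with the other hypoxia targets (0.66) and PGK1 and BNIP3 with the glucocorticoid list (0.56 and 0.58) were among the 9, whereas VEGFA with glycolysis was not.

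Among cell types, the closest relation was that of SLC2A1 with the neutrophil list (r = 0.80, permutation p = 1e-05, adjusted p = 0.000178, rho = 0.65 with p = 8e-05). It was 0.84 within the M and 0.74 within the NM MCTs, 0.64 without the 2 tumours of most extreme score, and 0.78 with the signal share removed. Only 5 genes of that list were tested. The calprotectin subunits S100A8 and S100A9 had r of 0.76 each with SLC2A1 and the related S100A12 had 0.71, the growth factor receptor CSF3R had 0.60, and the azurophil granule enzyme MPO had 0.06. S100A8 and S100A9 are made by stressed keratinocytes as well as by neutrophils, and in these tumours each had r = 0.69 with the keratinocyte score. SLC2A1 was also called against the keratinocyte list (r = 0.57, permutation p = 0.00052, adjusted p = 0.00277, rho = 0.50), and 14 of its 21 genes had r above 0.5. That relation was not called when both SLC2A1 probe sets were averaged (r = 0.33, adjusted p = 0.128). The neutrophil list relation was 0.70 with the keratinocyte score removed (adjusted p = 0.000246).

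NDRG1 followed the mast cell list (r = 0.72, permutation p = 2e-05, adjusted p = 0.000213, rho = 0.46 with p = 0.00679). All 11 tested mast cell genes were positively related to it, from 0.50 for SRGN to 0.81 for IL1RL1, the receptor for interleukin 33. The IgE receptor chain FCER1A had 0.73 and the chymase CMA1 had 0.70. Much of this came from the M Golden Retriever and the NM Labrador Retriever with the highest scores (2.37 and 2.64), which also had the highest NDRG1. Without them r was 0.44, and with the signal share removed over all tumours it was 0.62 (adjusted p = 0.00907). The mast cell score was 0.04 ± 0.80 (SD, n = 18) in the M and -0.04 ± 1.02 (SD, n = 16) in the NM MCTs.

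HIF1A was called against the macrophage list (r = 0.67, permutation p = 0.00021, adjusted p = 0.0014), but not by rank (rho = 0.39, p = 0.023, adjusted p = 0.0526). Of its 5 tested genes, the mannose receptor MRC1 had r = 0.63 with HIF1A, the haemoglobin scavenger receptor CD163 had 0.57 and CSF1R had 0.56. CD14 had 0.28 and AIF1 had 0.26. MRC1 was above the table median in only 11 tumours. Without the 2 tumours of most extreme score, r of HIF1A with the list was 0.52. Against the endothelial list, VEGFA was called (r = 0.55, permutation p = 0.00095, adjusted p = 0.00434, rho = 0.49), yet r was 0.83 within the M MCTs and -0.04 within the NM MCTs. The difference between these was not tested. The only negative relation called with a cell type list was that of TXNIP with T and NK cell genes (r = -0.46, permutation p = 0.00633, adjusted p = 0.0207, rho = -0.46).

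**Figure D4:**
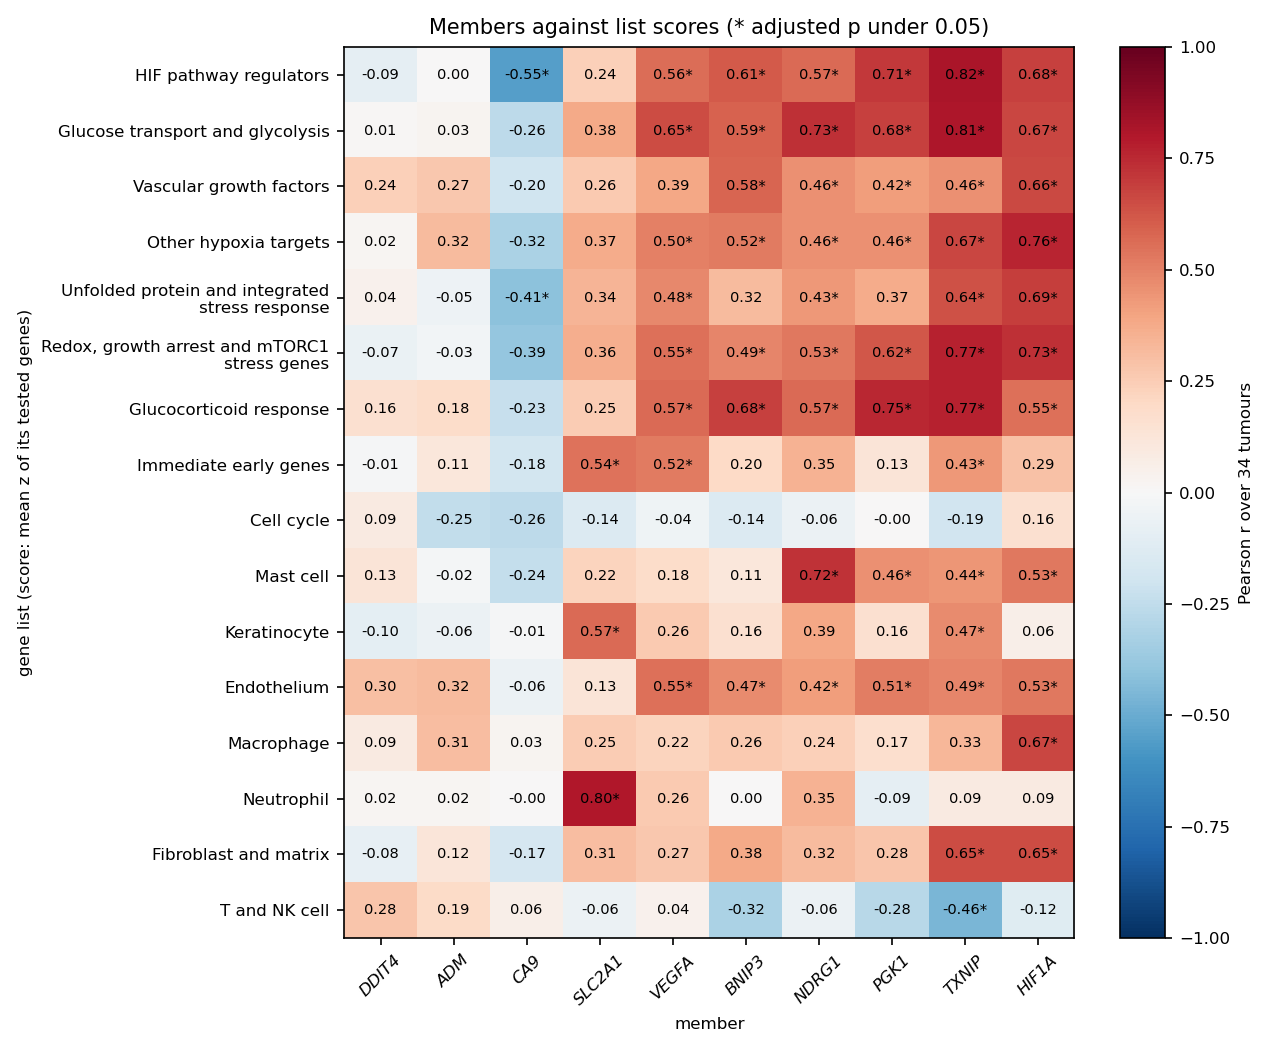
Pearson r of the 10 genes (columns) with the scores of 16 gene lists (rows) over 34 tumours, asterisks marking an adjusted p under 0.05. The columns of DDIT4 and ADM hold no asterisk, the TXNIP column holds 13, and the highest cells outside the process lists are SLC2A1 with the neutrophil list (0.80) and NDRG1 with the mast cell list (0.72).

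**Figure D5:**
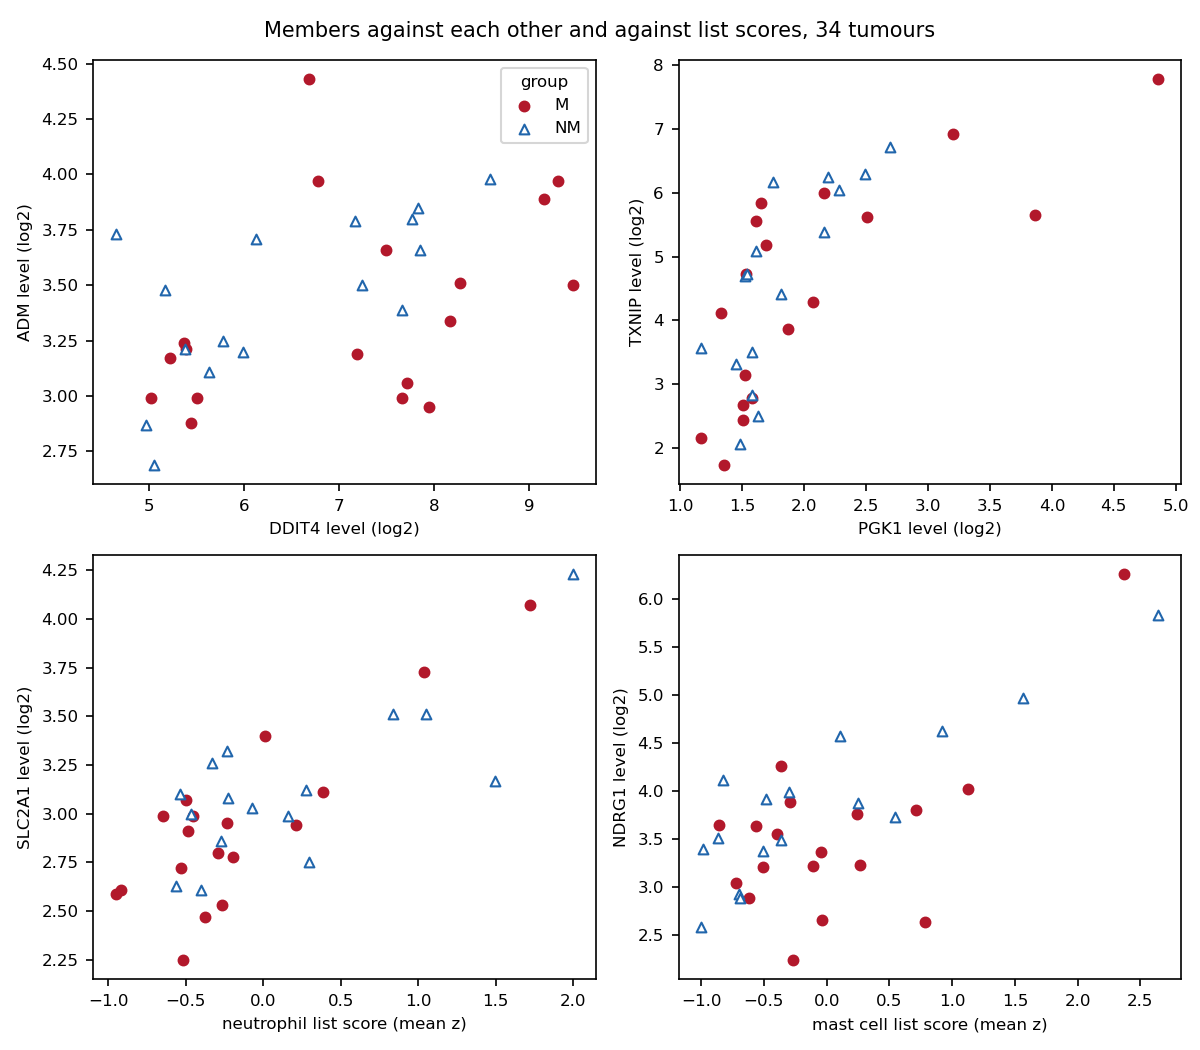
Log2 levels of ADM against DDIT4 and of TXNIP against PGK1, and of SLC2A1 and NDRG1 against the neutrophil and mast cell list scores (mean z), 1 point per tumour, filled circles M and open triangles NM. M and NM points are intermingled in all 4 panels, and NDRG1 has its highest tumours of 6.26 and 5.83 at mast cell scores of 2.37 and 2.64.

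For each gene the 5 most similar named genes were listed by r over the 34 tumours, as a description without a test. The share of clusters past an absolute r of 0.411 shows how broad each pattern was: 38.6% for TXNIP, 30.5% for HIF1A and 22.7% for PGK1, but 7.27% for DDIT4, 5.38% for ADM and 4.82% for SLC2A1. TXNIP was closest to the proteasome subunit PSMA7 (0.92) and to the ribosomal protein genes RPL4, RPS2 and RPL7A (0.89 each) and RPL27 (0.88). Ribosomal protein genes have many near-identical copies, so their probe sets are uncertain as to gene. PGK1 was closest to LOC480043 (0.93), the glucocorticoid-induced FKBP5 (0.90) and the respiratory chain genes ATP5PO, SDHA and ATP5F1E (0.87 each). BNIP3 was closest to the fatty acid oxidation enzyme ACADVL (0.85), PTPRM (0.84), the glycolysis regulator PFKFB3 (0.83), the mitochondrial fusion gene MFN2 (0.82) and GOT2 (0.81). HIF1A was closest to RASA3 (0.91), ACTR2 (0.89), MAN1A1 and AKAP13 (0.87 each) and AP2M1 (0.86). By rank several of these were lower. Spearman's rho was 0.47 and 0.51 for BNIP3 with PFKFB3 and GOT2, 0.59 for HIF1A with RASA3 and 0.65 for PGK1 with SDHA. For the genes closest to TXNIP it stayed between 0.87 and 0.91.

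SLC2A1 was closest to the water and glycerol channel AQP3 (0.79), the protease inhibitor SLPI (0.77), S100A9 and S100A8 (0.76 each) and the beta-defensin CBD103 (0.75). By rank these were lower, from 0.48 to 0.66. NDRG1 was closest to the mast cell receptor IL1RL1 (0.81), UHRF1BP1 and WRNIP1 (0.78 each), and PARVB and UNC13D (0.77 each), the last a factor in granule release. By rank NDRG1 had rho of 0.49 with IL1RL1 and 0.56 with UNC13D, and 0.66 to 0.70 with the rest. DDIT4 was closest to the arginine methyltransferase PRMT6 (0.72, rho = 0.76), ASMTL (0.69), RAB33B (0.67), the microRNA gene MIR632 (0.64) and the kinase MATK (0.63). The M minus NM difference of means was 1.09 for MIR632 and ran from -0.07 to 0.18 for the other 4, with no test. VEGFA was closest to the stress-responsive transcription factor NFE2L1 (0.71), and RHOT2, NICN1 and COG8 (0.69 each) and CLTB (0.68) came next. ADM (ZSWIM5, 0.64) and CA9 (GPR6, 0.63) had the lowest leading values.

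The other genes of the pathway were described as lists, without the 10 genes. None of their members passed adjustment in the M against NM comparison. Over all clusters, 43.9% had a higher mean in the M MCTs. An unadjusted p under 0.05 in limma was reached by 4.14%, with 1.34% higher and 2.8% lower. The counts of every list below are to be read beside these shares, and 1 gene in a short list is near them. Of 14 HIF pathway regulators tested, 5 had a higher and 9 a lower mean in the M MCTs (median -0.04), and 1 had an unadjusted p under 0.05, the coactivator CREBBP (-0.29, SE 0.14, unadjusted p = 0.0398). Of 18 genes of glucose transport and glycolysis, 6 were higher and 12 lower (median -0.06), none at an unadjusted p under 0.05. GAPDH levels, for instance, ran from 2.18 to 8.41 in the M and from 2.70 to 8.33 in the NM MCTs, with a mean difference of -0.34 (SE 0.54). The enzyme TPI1 differed by 0.17 (SE 0.27). These medians lay close to the -0.02 of all clusters.

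Of 9 vascular growth factor genes, 3 were higher and 6 lower, and the placental growth factor PGF, at 2.25 against 2.48 in the medians, differed by -0.22 (SE 0.07, unadjusted p = 0.00659). Of 14 other hypoxia targets, 3 were higher and 11 lower (median -0.06), with the collagen hydroxylase P4HA1 at 0.14 (SE 0.08). The 14 genes of the unfolded protein and integrated stress response also split 3 to 11 (median -0.03). There the sensor ATF6 differed by -0.20 (SE 0.09, unadjusted p = 0.0318) and the chaperone HSPA5 by -0.16 (SE 0.32). Of 15 genes of redox control, growth arrest and mTORC1 stress, 4 were higher and 11 lower. The quinone reductase NQO1 had the largest difference among them (-0.51, SE 0.19, unadjusted p = 0.0134), with levels from 2.35 to 4.41 in the M and from 2.83 to 4.97 in the NM MCTs.

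The 13 glucocorticoid response genes, a pathway that also induces DDIT4, had 5 higher and 8 lower means in the M MCTs (median -0.05). The metallothionein MT2A differed by -0.64 (SE 0.34, unadjusted p = 0.0707) and the transcription factor KLF9 by -0.61 (SE 0.27, unadjusted p = 0.0316). FKBP5 differed by 0.23 (SE 0.30). The immediate early genes had 17 of 17 means lower in the M MCTs, with a median of -0.43. Of these, 9 had an unadjusted p under 0.05, against 2.8% of all clusters lower at that limit, and none passed adjustment. The transcription factors EGR1 (-1.05, SE 0.39), JUNB (-0.90, SE 0.40) and FOS (-0.86, SE 0.35) led the list. EGR1, JUNB and FOS were reported by the study as lower in these same M tumours. The direction of this list was thus partly known in advance. DDIT4, which is also quickly induced by stress, had r = -0.01 with that list (permutation p = 0.972, adjusted p = 0.985), whereas SLC2A1 had r = 0.54 (permutation p = 0.00101, adjusted p = 0.00449, rho = 0.58).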

How the data were processed

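RNA from 34 FFPE biopsies of canine MCTs, 18 M and 16 NM, was measured on gene arrays. The authors deposited log2 values, 1 per Transcript cluster. They had removed arrays judged outliers and run Robust Multichip Analysis, with quantile normalisation, on those kept. The software was Affymetrix Expression Console 1.3, as listed in the submitters' processing notes. This normalisation sets all arrays to one distribution of probe signal, so differences are relative to the other genes of an array. The number of arrays limits the precision, and array strips are not given per tumour in the sources used here.

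Genes were named by the platform annotation, which can be old. Clusters above the median of the table, 1.84, in 30% or more of the tumours of either group were tested (19246), in place of the study's detection filter. Groups and breeds were compared in R 4.3.3 by limma 3.58.1, with p-values adjusted after Benjamini and Hochberg, a script that was tested on simulated data. Correlations used two-sided permutation tests with 100000 resamples in Python 3.11.15 with numpy 2.4.6. The genes named are the 10 members, the 5 most correlated named genes of each, and up to 3 genes per list with the largest difference, besides marker genes of lists that moved with a member, which were chosen after their values were seen. Members and lists were chosen with earlier results of these data known. Dog age and sex, taken from the study's tables by dog, entered only as covariates. Same-numbered M and NM labels did not pair: over 16 such pairs the correlation of deviations from the group means ran from -0.61 to 0.44, with 3 over 0.1. Alternatives covered the level filter, the variance model, array weights, covariates, normalisation, probe set summaries and correlation measures. No sequence is printed. The annotation of the dog assembly UU_Cfam_GSD was used for names only.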

Additional observations from a re-analysis of the deposited data

How the results depend on the processing

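The depth of arrays is fixed, so signal over background sets the limit: PGK1, HIF1A and CA9 lay below the table median in most tumours. The 0 calls in the M against NM comparison held in 12 of 12 alternatives, those in the Labrador Retriever comparison in 10 of 10 and those in the interaction in 9 of 9. With the replicate number of the labels as a block, the M against NM comparison called 0 clusters, with 548 at an unadjusted p under 0.05 in place of 797, and the numbers do not pair the tumours. No difference of the 10 genes moved by more than 1 pooled SD, but this limit is wide, since each difference as deposited was itself smaller. DDIT4, for instance, was 0.67 as deposited and ran from 0.27 to 1.29 in the alternatives, with a pooled SD of 1.4. The signs of VEGFA, SLC2A1, CA9, TXNIP and HIF1A changed in at least 1 alternative. The count of correlated pairs depended most on the processing. It was 14 as deposited, 6 with a second quantile normalisation over the tested clusters, 8 with the keratinocyte score removed, 8 with the mean correlation of an array removed, 6 with the mast cell score removed and 0 with the share of clusters above level 4 removed. All 6, 8, 8 and 6 pairs were among the 14. The 61 combinations with list scores ran from 42 to 67 in the 6 alternatives and were 14 with the share above level 4 removed and 9 with that share and the 10 genes themselves taken out of the scores. Leaving the 10 genes out of the scores gave 62. The removals of that share, of the 10 genes and of the mast cell score, and the fit without the 3 tumours highest for PGK1, were added after seeing the data. The causes were not tested.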

Other observations

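The cell type and cell cycle lists against which the 10 genes were set differed between the metastasis groups as follows, with no gene past adjustment in limma. Over all clusters 43.9% had a higher mean in the M MCTs. Of 9 cell cycle genes 7 had a higher mean in the M MCTs (median 0.09), led by the microtubule regulator STMN1 at 0.62 (SE 0.26, unadjusted p = 0.0214). All 7 T and NK cell genes had a higher mean, but by little (median 0.04). The widest difference was that of the T cell receptor chain CD3D, at 0.36 (SE 0.12). Its NM levels reached only 1.71, under the table median of 1.84, so it passed the level filter through the M MCTs alone. Its M median was 1.76, also at low signal, and its difference is given without a p-value. All 10 fibroblast and matrix genes had a lower mean (median -0.30), DCN at -0.77 (SE 0.62) having the widest difference. The medians of the T and NK cell (0.04), mast cell (0.08), endothelial (-0.01) and macrophage (0.07) lists lay nearer to 0 than that of the fibroblast list. Those of the keratinocyte (-1.12) and neutrophil (-0.87) lists lay farther from it. For the neutrophil list these are differences of means, and the group medians were close. They were 1.88 (M) and 1.94 (NM) for S100A9, 2.54 and 2.68 for S100A8, and 1.87 and 1.96 for S100A12.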
